A study of Homo sapiens with 38 samples.

Results

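FOXM1, MYBL2 and 6 subunits of the MuvB and DREAM complexes (LIN9, LIN37, LIN52, LIN54, RBL1 and RBL2) were followed across 3 human breast cancer cell lines treated with degraders of the histone methyltransferase EZH2. The 8 genes were chosen by symbol, with earlier results of these data known. All 8 were listed in each of the 15 deposited tables of 1 compound against DMSO, among 24463 genes listed in at least 1 table. T47D, T47D-TR and BT-549 cells received 2.5 uM of MS177 (an EZH2 degrader), of MS177-N1 or MS177-N2 (its negative controls) or of C24 (an inhibitor of EZH2 methyltransferase activity) for 48 h, with 0.125% DMSO as vehicle. T47D-TR cells also received 2.5 uM of MS8815 (another EZH2 degrader), of its negative control MS8815-N or of the methyltransferase inhibitor EPZ-6438 for 30 h, with 0.05% DMSO as vehicle. All cells were grown with serum and insulin, and the labels do not spell out TR. Each of the 19 groups held 2 samples of polyadenylated RNA. Nothing in the labels says that replicates were separate cultures, so p-values measure the spread between these samples, which may be technical.

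MuvB is a core of LIN proteins and the histone chaperone RBBP4 that sits on promoters of cell cycle genes. In resting cells the core joins a pocket protein, encoded by RBL1 or RBL2, and an E2F4 or E2F5 dimer to form DREAM, which holds these genes down. As cells enter S phase the pocket protein leaves, B-MYB (encoded by MYBL2) binds the core, and FOXM1 later joins to switch on genes of G2 and mitosis. LIN54 is the subunit that contacts DNA at the CHR (cell cycle genes homology region), LIN52 links the core to a pocket protein or to B-MYB, and LIN9 and LIN37 are further parts of the core. MYBL2 and RBL1 are themselves known E2F-controlled genes. In bulk samples, fewer cells in a phase of the cell cycle and less RNA per cell cannot be told apart.

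Promoter windows are shown for 2 members that fell with MS177 in T47D-TR (MYBL2 and RBL1) and 2 that rose with it in T47D-TR or BT-549 (LIN37 and LIN52), since the family acts through E2F and CHR elements and some members carry them. RefSeq (GRCh38.p14) gave windows for 7 of the 8 members, 12 windows in all, and none for FOXM1. Each run holds the 250 bases before the annotated start, 5′ to 3′ on the gene's strand, and is the first of 2 windows for LIN37. Capitals mark matches on either strand to the E2F 8-mers TTTCCCGC, TTTCGCGC, TTTGCCGC and TTTGGCGC, to the E2F core GGCGGGA, to the CHR letters TTTGAA and TTCGAA, and to CCAAT.
MYBL2 at chr20:43666864-43667113, plus strand: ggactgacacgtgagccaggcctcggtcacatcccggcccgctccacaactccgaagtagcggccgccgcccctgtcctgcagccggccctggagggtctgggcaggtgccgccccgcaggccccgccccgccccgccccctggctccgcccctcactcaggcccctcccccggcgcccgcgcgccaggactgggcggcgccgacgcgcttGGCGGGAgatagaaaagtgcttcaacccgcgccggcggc
RBL1 at chr20:37095998-37096247, minus strand: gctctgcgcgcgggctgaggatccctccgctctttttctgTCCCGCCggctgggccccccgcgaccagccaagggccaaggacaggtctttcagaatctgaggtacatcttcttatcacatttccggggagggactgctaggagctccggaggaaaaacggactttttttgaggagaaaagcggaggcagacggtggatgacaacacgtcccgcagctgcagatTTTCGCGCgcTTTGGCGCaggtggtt
LIN37 at chr19:35748326-35748575, plus strand: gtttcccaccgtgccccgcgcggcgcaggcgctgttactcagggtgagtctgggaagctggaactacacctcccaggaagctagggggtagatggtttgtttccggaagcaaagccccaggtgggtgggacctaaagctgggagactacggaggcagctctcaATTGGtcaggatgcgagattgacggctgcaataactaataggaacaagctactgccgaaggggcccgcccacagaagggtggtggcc
LIN52 at chr14:74084706-74084955, plus strand: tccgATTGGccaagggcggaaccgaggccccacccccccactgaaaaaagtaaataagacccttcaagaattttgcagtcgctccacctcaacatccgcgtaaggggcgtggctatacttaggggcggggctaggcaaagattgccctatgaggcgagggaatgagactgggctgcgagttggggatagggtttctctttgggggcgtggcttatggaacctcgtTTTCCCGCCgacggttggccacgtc

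The MYBL2 window held 1 E2F core, 39 bases before the start, and none of the other motifs. RBL1 carried 2 E2F 8-mers close together, 26 and 16 bases before the start, and 1 core on the reverse strand 210 bases before it. The LIN52 window held an E2F 8-mer 25 bases before the start, overlapped by a core on the other strand, and a CCAAT box at its far end. A CCAAT box was the sole match in the first LIN37 window, while the second held a CHR and an E2F core. Both LIN54 windows and the third LIN9 window also held a CHR beside at least 1 E2F core. RBL2 had 2 matches to the forkhead letters TAAACA in its first window, a CCAAT box in its second, and no CHR or E2F match in either. Among 35116 windows of the same length, an E2F 8-mer was present in 2.79%, the E2F core in 13.5%, a CHR in 14.3%, CCAAT in 32% and TAAACA in 11%. A match describes letters in a window and is not a shown binding site.

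**Figure D1:**
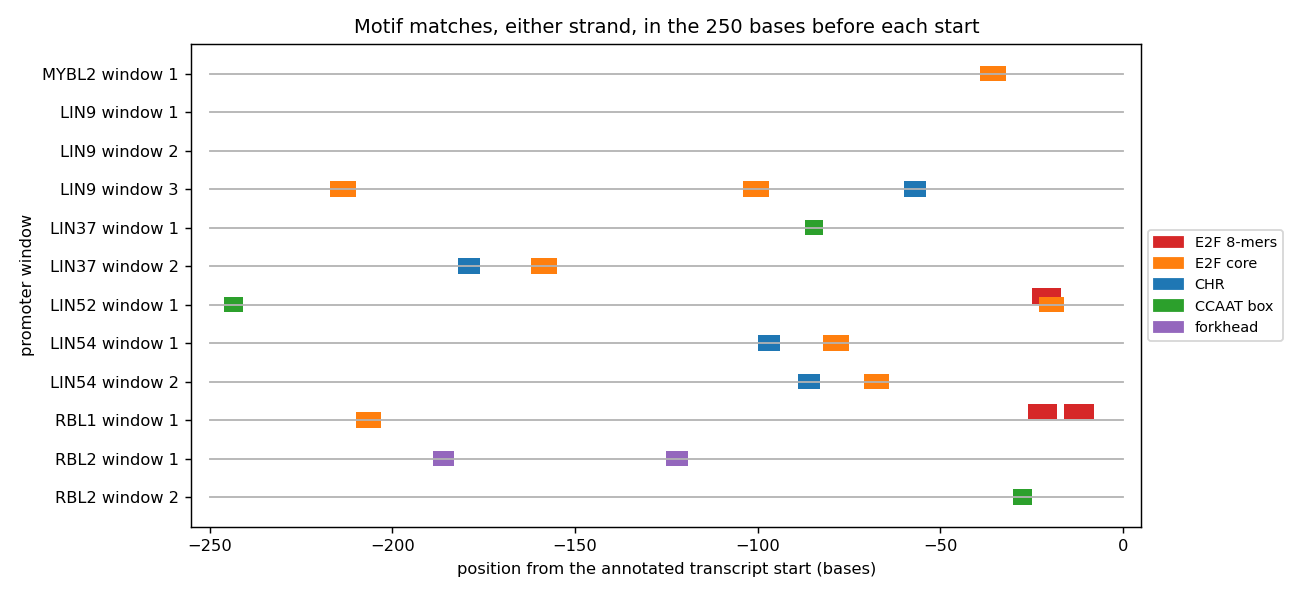
Motif matches (coloured bars) in 12 promoter windows of 7 members, by position in bases from the annotated start at 0. The E2F 8-mers of RBL1 and LIN52 lie within 26 bases of the start, and the MYBL2 core lies 39 bases before it.

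In hg38 the activators lie at different sites, FOXM1 at chr12:2857681-2877155 on the minus strand and MYBL2 at chr20:43667019-43716496 on the plus strand. The core subunits are LIN9 at chr1:226231149-226309869, LIN37 at chr19:35748361-35754519, LIN52 at chr14:74084796-74201235 and LIN54 at chr4:82909973-83012926, and the pocket protein genes are RBL1 at chr20:36996349-37095995 and RBL2 at chr16:53433977-53491649. These bounds differ from the RefSeq starts, and the printed MYBL2, LIN37 and LIN52 windows reach past the first base of the gene given here. The MYBL2 core and the LIN52 E2F 8-mer thus lie inside these bounds. Where genes overlap, reads of the 2 cannot be told apart without strand, and the strand setting of the counting was not given in the sources used here. LIN37 shares 54% of its exonic bases with the listed genes AD000671.3 and AD000671.1, and FOXM1 15.9% with ITFG2. RBL2 shares 8.33% with AKTIP and RBL1 3.54% with AL136172.1. In the T47D-TR comparison of MS177 with DMSO, ITFG2 differed by -0.08 on the deposited log2 scale (adjusted p = 0.521, limma), and AKTIP rose by 0.63 (adjusted p = 0.00094). The genes overlapping LIN37 have no test in that table. With MS177, AD000671.1, on the same strand as LIN37, differed by 1.68 in T47D (adjusted p = 0.553) and 1.25 in BT-549 (adjusted p = 0.0609), beside 1.23 and 0.23 for LIN37. AD000671.3, on the other strand, differed by 0.07 and 0.31. Their part in the LIN37 counts was not tested. AL136172.1, on the other strand from RBL1, differed by -1.49 with MS177 in T47D (adjusted p = 0.158, limma), beside -2.11 for RBL1. It has no test with MS177 in T47D-TR or BT-549, and its part in the RBL1 counts was not tested.

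Reads over the listed genes numbered 32125565 to 49871789 per library in T47D and BT-549, and the depth of T47D-TR is unknown. Values below are normalized counts, obtained by undoing the authors' variance-stabilizing transform. Tests against DMSO are on the deposited log2 scale, which is compressed at low counts, so a difference there is not the log2 of the ratio of normalized counts. The lowest value ran from 3.45 to 9.28 over the 15 deposited tables, and the compression differs between them. The sizes of these differences are therefore not comparable between lines. In T47D-TR, MS8815-N replicate 2 stood apart, with 6933 of 15648 genes at the table's lowest value against 93 to 798 in the other libraries of the 30 h tables. The 798 belongs to MS8815 replicate 1, where the other libraries of its table had 241 to 338 such genes. MS8815 replicates 1 and 2 differed for some genes, such as CDK1 (1748 and 945) and TFDP1 (1586 and 669). They were close for others, such as ANLN (443 in each). The MS8815 results below rest on these libraries. The second treated column of the MS177-N1 table in T47D repeated an MS177-N2 library and was left out, so MS177-N1 has 1 library there and was assumed to vary like the DMSO libraries. Luminal markers (ESR1, GATA3 and KRT8 among them) were above 1 CPM (the usual depth-scaled count, here over all listed normalized counts) in the DMSO libraries for 8 of 8 genes in T47D and in T47D-TR. The 7 mesenchymal markers (VIM and ZEB1 among them) were all above it in BT-549. So were 4 of the 8 luminal markers there, GATA3 (166 CPM) and KRT8 (10.1 CPM) among them but not ESR1 (0.127 CPM), and 3 of the 7 mesenchymal markers in T47D and in T47D-TR at 48 h. The T47D-TR values keep a further unknown factor for each gene, so the cut of 1 CPM is only nominal in that line. EZH2 transcript, which does not check a compound directed at the protein, was at 239 and 255 with DMSO and at 373 and 345 with MS177 in T47D-TR, a rise of 0.27 (adjusted p = 0.0225, limma).

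With MS177 in T47D-TR, both activators and both pocket protein genes fell, LIN54 fell and LIN37 rose. FOXM1, the forkhead activator of mitotic genes, was at 1326 and 1593 normalized counts in the DMSO libraries and at 231 and 234 with MS177. The groups lay far apart, with an MS177 mean 6.27-fold lower (233 ± 1.60, SD, n = 2, against 1459 ± 189, n = 2). On the deposited scale FOXM1 fell by 1.68 (SE 0.0972, adjusted p = 3.92e-05, limma with Benjamini-Hochberg adjustment over 17156 genes). MYBL2 was at 5900 and 5406 with DMSO and at 794 and 792 with MS177, a mean 7.13-fold lower. It fell by 2.36 on the deposited scale (SE 0.0905, adjusted p = 1.25e-05).

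RBL1, which encodes the pocket protein that is high in cycling cells, was at 485 and 549.4 with DMSO and at 112 and 94.3 with MS177. It fell by 1.08 (SE 0.0813, adjusted p = 0.000102), and the mean count was 5.02-fold lower. RBL2, the pocket protein gene of resting cells, was at 697 and 761 against 238 and 181 and fell by 1.01 (adjusted p = 0.000211). LIN54, the DNA-binding subunit, was at 361 and 487 against 132 and 192 and fell by 0.67 (adjusted p = 0.00297). In none of these 5 genes did the groups overlap, but the share of all genes without overlap was not counted. LIN37 went the other way, from 77.9 and 62.9 to 182 and 171, a rise of 0.46 (adjusted p = 0.00208) and a count ratio of 2.51. LIN9 was at 284 and 275 against 166 and 230 (difference -0.24, adjusted p = 0.0691), and LIN52 was at 242 and 235 against 296 and 274 (0.12, adjusted p = 0.211). So 6 of 8 members passed the threshold, 5 lower and 1 higher, where 47.8% of all tested genes passed. No member lost its call when any one of the 4 libraries was left out. LIN9 gained one without MS177 replicate 2 (-0.34, adjusted p = 0.0403).

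**Figure D2:**
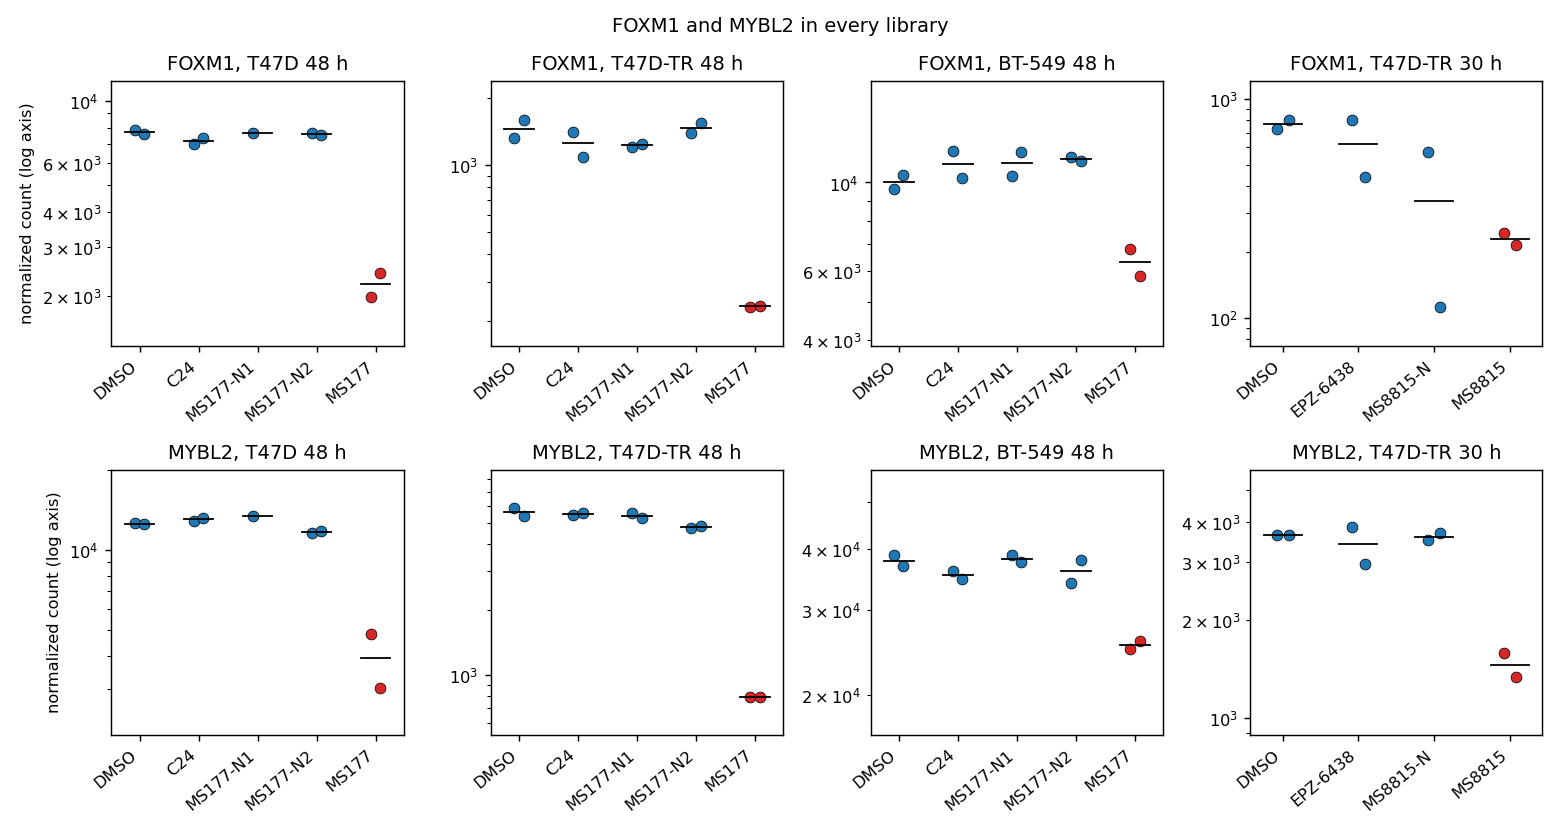
Normalized counts (log axis) of FOXM1 and MYBL2 in every library, by line, time and group; each point is 1 library and each bar the group mean. MS177 libraries (red) lie below every other library of their line at 48 h, while 1 MS8815-N library lies below the MS8815 libraries for FOXM1.

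In BT-549, MS177 moved 3 members: both activators fell and LIN52 rose. FOXM1 was at 9649 and 10455 with DMSO and at 6809 and 5804 with MS177, and it fell by 0.67 (SE 0.131, adjusted p = 0.0212, limma). MYBL2 was at 38795 and 36877 against 24848 and 25804 and fell by 0.58 (SE 0.127, adjusted p = 0.0284). LIN52, the adaptor subunit, was at 306 and 319 against 528 and 523 and rose by 0.61 (SE 0.105, adjusted p = 0.0141). The 2 groups were apart for all 3, though the share of all genes set apart was not counted. RBL1 overlapped, with 1321 and 1665 against 1824 and 1427 (0.11, interval -0.32 to 0.55, adjusted p = 0.668). LIN54 overlapped as well, with 888 and 1050 against 998 and 858 (-0.06, adjusted p = 0.799). RBL2 (-0.27), LIN37 (0.23) and LIN9 (-0.08) did not pass either, with adjusted p from 0.222 to 0.635. Thus 3 of 8 members passed, against 23.3% of all genes. The FOXM1 call was lost without DMSO replicate 2 (-0.61, adjusted p = 0.0713), and the MYBL2 call was lost without any 1 of the 4 libraries (adjusted p = 0.0586 to 0.182).

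In T47D, the MS177 libraries differed widely from each other and no gene of the table passed. Both lay outside the DMSO range for all 8 members, but the share of all genes that did so was not counted. FOXM1 was at 7832 and 7584 with DMSO and at 1991 and 2428 with MS177 (difference -1.80, SE 0.275, adjusted p = 0.137, limma). MYBL2 was at 12620 and 12503 against 4833 and 3012 (-1.71, adjusted p = 0.156), and RBL1 at 1342 and 1161 against 195 and 377 (-2.11, adjusted p = 0.144). Both MS177 libraries were below both DMSO libraries in these 3 genes. RBL2 shows the spread between the MS177 libraries, at 481 and 1178 against 1870 and 1703 (-1.22, adjusted p = 0.305). LIN37 was at 282 and 303 with DMSO and at 1006 and 508 with MS177 (1.23, adjusted p = 0.248). LIN9 (-1.27), LIN54 (-0.90) and LIN52 (0.28) had adjusted p from 0.215 to 0.601. The count of genes past the threshold was 0 of 18494 by limma (0% called), with 3222 at an unadjusted p under 0.05, among them 5 of the 8 members. Without MS177 replicate 1, 7 members passed, where 48.5% of all genes did, and without MS177 replicate 2, 8 members and 68.9% of genes did. Each of those fits takes its spread from the DMSO pair alone. FOXM1 did not pass when a DMSO library was left out instead. In the fit of all T47D libraries on the normalized count scale, 5 members and 18.2% of genes passed. That fit takes its spread from all T47D groups, not from the MS177 and DMSO libraries alone.

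**Figure D3:**
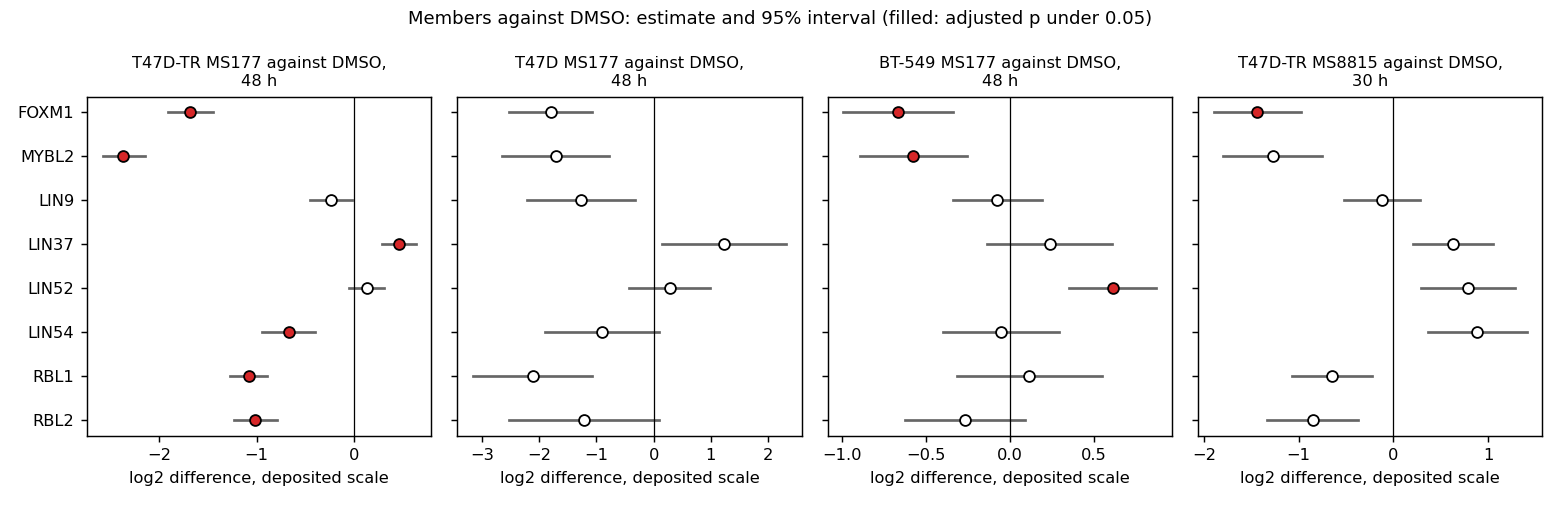
Difference from DMSO on the deposited log2 scale (horizontal axis, points) with 95% intervals (lines) for the 8 members, in 3 MS177 comparisons at 48 h and the MS8815 comparison at 30 h; filled points passed an adjusted p of 0.05. The filled points number 6 in T47D-TR, 0 in T47D, 3 in BT-549 and 1 with MS8815, and horizontal scales differ between panels. The compression of the deposited scale also differs between them.

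The MS177 response itself differed between T47D-TR and BT-549. In a model of line and treatment on log2(normalized count + 1), the interaction passed for 6 of 8 members (30.5% of 12887 genes passed). RBL1 differed most, by -2.44 (SE 0.257, adjusted p = 0.000543), then MYBL2 by -2.25 (SE 0.135, adjusted p = 6.26e-05) and FOXM1 by -1.96 (SE 0.182, adjusted p = 0.000307). The pocket protein gene RBL2 (-1.52), LIN54 (-1.33) and LIN37 (1.05) passed as well. LIN37 missed the threshold without BT-549 DMSO replicate 1 (adjusted p = 0.0898), BT-549 MS177 replicate 1 (0.0732), T47D-TR DMSO replicate 2 (0.0592) or T47D-TR MS177 replicate 1 (0.0605), and on the deposited scale (0.22, adjusted p = 0.371). LIN54 missed it without BT-549 DMSO replicate 1 (0.0626), BT-549 MS177 replicate 1 (0.0505) or T47D-TR DMSO replicate 2 (0.0534). LIN9 (-0.43) and LIN52 (-0.49) did not pass. Between T47D and BT-549, 1.53% of genes and no member passed, with 4 members at an unadjusted p under 0.05 in limma. FOXM1 differed there by -1.13 (interval -1.75 to -0.52, adjusted p = 0.0973). Between T47D-TR and T47D, 0.0289% of genes and no member passed, with 2 members at an unadjusted p under 0.05, FOXM1 (-0.83, adjusted p = 0.283) and MYBL2 (-1.11, adjusted p = 0.259). Both line comparisons with T47D hold its spread-out MS177 libraries. Without MS177 replicate 2 of T47D the FOXM1 interaction was -1.28 against BT-549 and -0.69 for T47D-TR against T47D. That fit holds 1 T47D MS177 library and takes the T47D spread from its DMSO pair alone. Leaving out 1 of the 8 libraries gave -1.28 to -0.99 and -0.97 to -0.69, and the FOXM1 call changed in 2 of 8 cases in each comparison.

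The negative controls and the inhibitor C24 were given at the same dose and time as MS177. Their FOXM1 and MYBL2 means were 0.842 to 1.14 of DMSO over the 3 lines, and neither gene passed against DMSO with any of them. In T47D-TR, FOXM1 was at 1213 and 1245 with MS177-N1, at 1391 and 1547 with MS177-N2 and at 1417 and 1092 with C24. The difference of MS177 from them on log2(normalized count + 1) was -2.40, -2.65 and -2.41 (SE 0.154 each, adjusted p at most 5.04e-06). MYBL2 ranged from 4782 to 5591 over those 6 libraries and differed by -2.78, -2.61 and -2.80 (SE 0.0995, adjusted p at most 5.82e-07). Against each of the 3 compounds the same 6 members passed as against DMSO, where 50.7%, 46.4% and 48.1% of genes passed. RBL1 differed by -1.49 from MS177-N1, -2.14 from MS177-N2 and -2.08 from C24. LIN37 was 1.06, 1.46 and 1.21 higher. The LIN54 difference from MS177-N1 (-0.79, adjusted p = 0.0379) missed the threshold without MS177 replicate 1 (0.231) or MS177-N1 replicate 1 (0.198) and on the deposited scale (-0.32, adjusted p = 0.130). The LIN54 call was also lost without MS177 replicate 1 against MS177-N2 (0.0667) and against C24 (0.0576), and without MS177-N2 replicate 2 (0.0605).

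MS177-N1 in T47D-TR was the one control with members past the threshold against DMSO. RBL1 was at 333 and 252 against 485 and 549.4 and fell by 0.50 (adjusted p = 0.0278), and RBL2 was at 488 and 444 against 697 and 761 and fell by 0.44 (adjusted p = 0.0321). Those 2 of 8 members compare with 12.8% of all genes. Both groups were apart for both genes, though the share of all genes set apart was not counted. RBL1 missed the threshold without DMSO replicate 2 (0.181) or MS177-N1 replicate 2 (0.147), and RBL2 without DMSO replicate 1 (0.0502), DMSO replicate 2 (0.190) or MS177-N1 replicate 2 (0.157). FOXM1 (-0.20, interval -0.47 to 0.08) and MYBL2 (-0.05, interval -0.35 to 0.25) did not pass. No member passed by limma with MS177-N2 (0.124% of genes called) or C24 (0.00592%) in T47D-TR, and none did at an unadjusted p under 0.05.

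In BT-549 the differences of MS177 from its controls were again in the activators and LIN52. FOXM1 was at 10394 and 11950 with MS177-N1, 11605 and 11331 with MS177-N2, and 12005 and 10250 with C24, all above the MS177 libraries. It was lower with MS177 by differences of -0.83, -0.87 and -0.82 (SE 0.131, adjusted p at most 0.00152). MYBL2 differed by -0.59, -0.51 and -0.48, and LIN52 by 0.56, 0.52 and 0.70, all past the threshold. The LIN52 call against MS177-N2 was lost without MS177-N2 replicate 2 (0.45, adjusted p = 0.0515). LIN37 passed against C24 (0.52, adjusted p = 0.0342), a call lost without C24 replicate 1 (0.145), C24 replicate 2 (0.0917) or MS177 replicate 2 (0.198). Thus 3, 3 and 4 members passed, where 33.1%, 37.2% and 35.7% of genes did. Against DMSO no member passed with MS177-N1 (0% of 16793 genes called, 443 at an unadjusted p under 0.05 by limma), MS177-N2 (2.36%) or C24 (0.193%), and none did at an unadjusted p under 0.05.

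In T47D the shared fit of all libraries gave member calls that the DMSO table alone did not. That fit takes 1 estimate of the spread per gene from all T47D groups. The closer pairs of the other groups therefore enter the spread set against the widely differing MS177 libraries. FOXM1 was at 7685 with MS177-N1 (1 library), at 7686 and 7567 with MS177-N2 and at 7023 and 7359 with C24. MS177 differed from them by -1.80, -1.79 and -1.71 (adjusted p = 0.00783, 0.00248 and 0.00266). MYBL2 and RBL1 passed against all 3 as well, with RBL1 differing by -2.06, -2.17 and -2.21. LIN9 passed against MS177-N2 (-1.34, adjusted p = 0.025) and C24 (-1.24, adjusted p = 0.0284), and LIN37 against C24 (1.504, adjusted p = 0.0254). The counts were 3, 4 and 5 members, where 8.56%, 16.7% and 19.3% of genes passed. All of these calls were lost when only the compared libraries entered the fit, and those against MS177-N2 and C24 also when either library of the control was left out: FOXM1 then had adjusted p from 0.0518 to 0.0557. Leaving out MS177 replicate 1 or 2 raised both the member calls and the share of all genes called against MS177-N1 and MS177-N2. Leaving out MS177 replicate 2 did so against C24. Such fits hold 1 MS177 library, set against 1 library for MS177-N1, and take their spread from groups other than MS177. FOXM1 then differed from MS177-N1 by -1.95 to -1.66. No member passed against DMSO with MS177-N1 (0.101% of genes called), MS177-N2 (0% of 17854 genes called, 968 at an unadjusted p under 0.05 by limma) or C24 (0.908%), and none did at an unadjusted p under 0.05.

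**Figure D4:**
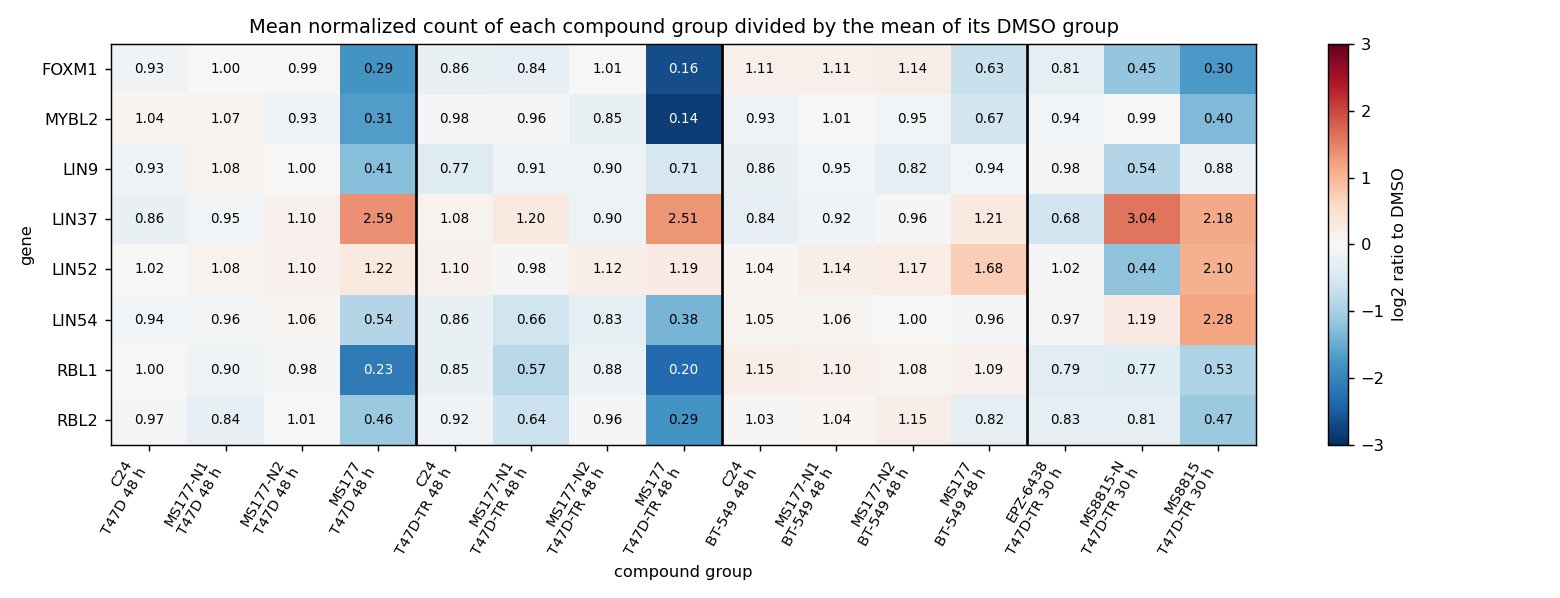
Mean normalized count of each compound group divided by the mean of its DMSO group, for the 8 members (rows) in 15 compound groups (columns); blue is lower and red higher than DMSO, on a log2 colour scale. FOXM1 and MYBL2 are lowest with MS177 in T47D-TR (0.159 and 0.140), and LIN37 is at 2.59 and 2.51 with MS177 in T47D and T47D-TR; the MS8815-N column includes the library that stood apart.

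MS8815 was tested in T47D-TR at 30 h. FOXM1 was at 726 and 801 with DMSO and at 245 and 215 with MS8815, and it fell by 1.44 (SE 0.178, adjusted p = 0.0408, limma). It was the 1 member of 8 past the threshold, where 2.78% of genes passed, and 7 members had an unadjusted p under 0.05. The FOXM1 call was lost without DMSO replicate 3 (adjusted p = 0.360) or DMSO replicate 4 (-1.37, adjusted p = 0.431). MYBL2 was at 3644 and 3632 against 1578 and 1332 (-1.28, SE 0.203, adjusted p = 0.0526), and it passed on the normalized count scale (-1.33, adjusted p = 0.0446). In the fit of all 30 h libraries, which include the one that stood apart, neither FOXM1 (-1.73, adjusted p = 0.511) nor any other member passed. The pocket protein genes were lower, RBL1 at 237 and 247 against 120 and 134 (-0.65, adjusted p = 0.0955) and RBL2 at 379 and 392 against 155 and 204 (-0.85, adjusted p = 0.0775). Of the core, 3 subunits had higher values that did not pass. LIN54 was at 127 and 174 against 310 and 375 (0.89, adjusted p = 0.0838), LIN52 at 152 and 159 against 372 and 282 (0.78, adjusted p = 0.0929), and LIN37 at 60.2 and 52.1 against 133 and 112 (0.63, adjusted p = 0.101). The groups did not overlap in any of them, and the share of all genes without overlap was not counted. LIN9 was at 163 and 167 against 145 and 146 (-0.12, adjusted p = 0.661). Without MS8815 replicate 1 or replicate 2, 7 members passed, LIN9 being the exception, where 38.7% and 52.7% of all genes passed. Those fits hold 1 MS8815 library and take their spread from the DMSO pair alone. Set beside the 48 h MS177 values, LIN54 was at 0.383 of DMSO with MS177 and 2.28 with MS8815, and LIN52 at 1.19 and 2.10. The times and DMSO groups differ, so these were not compared.

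No member passed for MS8815 against its control or the inhibitor. With EPZ-6438, FOXM1 was at 799 and 440, 1 library within the DMSO range and 1 below it. MS8815 differed from EPZ-6438 by -1.36 (interval -3.06 to 0.33, adjusted p = 0.750) for FOXM1 and by -1.22 (interval -1.86 to -0.58, adjusted p = 0.243) for MYBL2, and 0.108% of genes passed. Without MS8815-N replicate 2 in the fit, these became adjusted p = 0.0731 and 0.0527. With MS8815-N, FOXM1 was at 571 and 112, and LIN9 (179 and 0) and LIN52 (136 and 0) were listed at 0 in the library that stood apart. Against MS8815-N, MS8815 differed by -0.14 for FOXM1 (interval -1.83 to 1.55) and -1.31 for MYBL2 (interval -1.95 to -0.67, adjusted p = 0.174), and 0.0574% of genes passed, with a median over all genes of 0.52. Leaving that library out, the differences were -1.31 (adjusted p = 0.165) and -1.28 (adjusted p = 0.122). Against EPZ-6438, 1 member had an unadjusted p under 0.05, and against MS8815-N 2 had.

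Against DMSO no member passed with MS8815-N (0% of 15595 genes called, 280 at an unadjusted p under 0.05 by limma) or with EPZ-6438 (0% of 16032, 278 at an unadjusted p under 0.05). The median of all genes was -0.15 in the MS8815-N table. Without MS8815-N replicate 2, FOXM1 (-0.32, adjusted p = 0.0368), RBL1 (-0.43, adjusted p = 0.00839) and RBL2 (-0.37, adjusted p = 0.0152) passed, where 28.6% of genes did, and without replicate 1, 5 members and 83.1% of genes did. Without EPZ-6438 replicate 1, FOXM1 (-0.72, adjusted p = 0.0033), RBL1 (-0.70, adjusted p = 0.00723) and RBL2 (-0.54, adjusted p = 0.015) passed, where 33.4% of genes did. Each of these rests on 1 treated library.

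Ordered by mean level within each line at 48 h, the MS177 group was the lowest for FOXM1 and for MYBL2 in all 3 lines. In T47D-TR the FOXM1 means were 233 (MS177), 1229 (MS177-N1), 1254 (C24), 1459 (DMSO) and 1469 (MS177-N2), and the ranges of neighbours overlap only from MS177-N1 upward. In BT-549 the order was MS177 (6306), DMSO (10052), C24 (11128), MS177-N1 (11172) and MS177-N2 (11468). There the DMSO libraries overlap those of C24 and MS177-N1. In T47D it was MS177 (2210), C24 (7191), MS177-N2 (7627), MS177-N1 (7685) and DMSO (7708), the last 3 overlapping and the C24 libraries below them. For MYBL2 in T47D-TR the means were 793 (MS177), 4832 (MS177-N2), 5438 (MS177-N1), 5514 (C24) and 5653 (DMSO), the last 3 overlapping. In BT-549 they were 25326 (MS177), 35365 (C24), 36006 (MS177-N2), 37836 (DMSO) and 38142 (MS177-N1), and each of the last 4 overlaps its neighbours. In T47D they were 3922 (MS177), 11685 (MS177-N2), 12561 (DMSO), 13058 (C24) and 13407 (MS177-N1), with no overlap between neighbours. At 30 h in T47D-TR the FOXM1 means were 230 (MS8815), 341 (MS8815-N), 619 (EPZ-6438) and 763 (DMSO), and those of MYBL2 1455, 3411 (EPZ-6438), 3598 (MS8815-N) and 3638. Apart from MS8815 in MYBL2, neighbours overlap there. Untreated levels come from tables that were normalized separately. In CPM as defined above, FOXM1 was at 227 CPM in T47D, 112 CPM in T47D-TR and 267 CPM in BT-549 with DMSO at 48 h, and MYBL2 at 369, 433 and 1000 CPM. The T47D-TR values keep a further unknown factor for each gene, so they cannot be set beside those of the other lines. No test was made between lines on these levels.

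Of 8 other DREAM and MuvB genes, 4 passed with MS177 in T47D-TR, 2 higher and 2 lower, a share near the 47.8% of all genes that passed there. RBBP4, the histone-binding part of the core, fell by 1.11 (adjusted p = 0.000108) and TFDP1, the E2F dimer partner, fell by 1.06 (adjusted p = 0.000158). E2F5, a repressor-type E2F, rose by 1.08 (adjusted p = 0.000142), and DYRK1A, the kinase that phosphorylates LIN52 when DREAM forms, rose by 0.60 (adjusted p = 0.00716). E2F4 (-0.03), RB1 (-0.16), TFDP2 (-0.14) and MYBL1 (0.10) did not pass. In BT-549, TFDP1 fell by 0.43 (adjusted p = 0.0394) and E2F5 rose by 0.71 (adjusted p = 0.0138), with RBBP4 at -0.44 (adjusted p = 0.0571), so that 2 of 8 passed beside 23.3% of all genes. With MS8815, TFDP2 was the 1 gene of 8 that passed, and it rose by 1.49 (adjusted p = 0.0416), beside 2.78% of all genes. With MS177-N1 in T47D-TR, RB1, the retinoblastoma gene, was the 1 gene that passed, and it fell by 0.50 (adjusted p = 0.0417), beside 12.8% of all genes. In T47D none passed by limma with MS177, with 1 at an unadjusted p under 0.05, and TFDP1 had the largest difference (-1.82, adjusted p = 0.171).

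B-MYB, MuvB and FOXM1 are known to bind genes of G2 and mitosis. The list of such genes used here, and the G1/S list below, were chosen with earlier results of these data known. Of 46 such genes, 45 fell with MS177 in T47D-TR, where 47.8% of all genes passed in either direction, with a list median of -1.70 beside -0.00071 over all tested genes. CENPF, a kinetochore protein, fell by 2.82 (adjusted p = 1.05e-05) and CDK1, the mitotic kinase, fell by 2.51 (adjusted p = 2.22e-05). CDC25B, which activates CDK1, was the gene that did not pass (-0.14, adjusted p = 0.224). In BT-549, 35 of 46 fell and 0 rose, where 23.3% of all genes passed (median -0.65 beside 0.01), led by the mitotic kinesin KIF20A (-1.38, adjusted p = 0.00343) and the spindle gene ASPM (-0.99, adjusted p = 0.0200). CDC25C had the smallest difference there (-0.24, adjusted p = 0.168). In T47D the list median was -1.98 beside 0.02, and 0 of 46 passed by limma, with 43 at an unadjusted p under 0.05. The cytokinesis gene ANLN (-3.02) and the separase gene ESPL1 (-2.64) had its largest differences, and CKS2 its smallest (-0.75). On log2(normalized count + 1), the interaction for T47D-TR against T47D had a list median of -0.97, with 42 of 46 below 0. There 0 of 46 passed, where 0.0289% of all genes did. With MS8815, 16 of 46 fell and 0 rose, where 2.78% of all genes passed (median -1.08 beside 0.00487), where KIF20A fell by 1.93 (adjusted p = 0.0476) and the cyclin gene CCNA2 fell by 1.82 (adjusted p = 0.0402).

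E2F and DREAM are known to bind genes of G1 and S phase. In T47D-TR, 35 of 36 such genes fell with MS177 (median -1.63), where 47.8% of all genes passed. RRM2, a subunit of ribonucleotide reductase, fell by 3.42 (adjusted p = 8.72e-06) and the helicase gene MCM2 fell by 2.64 (adjusted p = 1.07e-05), while UHRF1 (-0.55, adjusted p = 0.229) did not pass. The DMSO libraries of UHRF1 differed widely, at 72.7 and 429, beside 75.5 and 66.3 with MS177. In BT-549, 12 of 36 fell and 0 rose (median -0.28), where 23.3% of all genes passed, with E2F2 at -1.27 (adjusted p = 0.00299), CCNE2 at -0.84 (adjusted p = 0.00826) and CDC45 at 0.35 (adjusted p = 0.0933). The interaction of line and MS177 for T47D-TR against BT-549 passed for 34 of these 36 genes and 44 of the 46 G2/M genes, all lower in T47D-TR, where 30.5% of all genes passed. In T47D the G1/S median was -2.02 and 0 passed by limma, with 35 at an unadjusted p under 0.05. The largest differences there were in CCNE2 (-3.28) and MCM10 (-3.25), and the smallest in SLBP (-0.43). With MS8815, 5 of 36 fell and 0 rose (median -0.88), where 2.78% of all genes passed, and RRM2 fell by 1.78 (adjusted p = 0.0382).

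**Figure D5:**
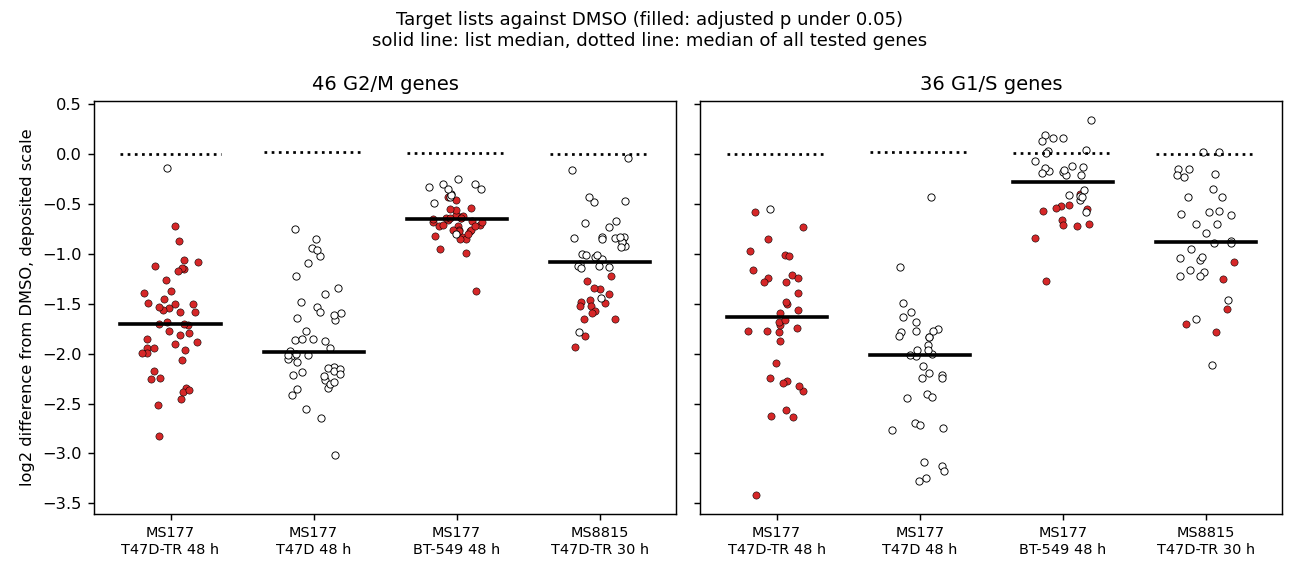
Difference from DMSO on the deposited log2 scale (vertical axis) for 46 G2/M genes and 36 G1/S genes, 1 point per gene, in 3 MS177 comparisons and the MS8815 comparison; filled points passed an adjusted p of 0.05, solid bars are list medians and dotted bars the medians of all tested genes. In T47D-TR 45 and 35 points are filled, in T47D 0 and 0, and in BT-549 35 and 12. The compression of the deposited scale differs between comparisons, so heights are not comparable between them.

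Across the 48 h libraries (9 in T47D, 10 in BT-549 and 10 in T47D-TR), the pattern of FOXM1 was most like those of KIF18B, INCENP, TPX2, NCAPH and CCNF, with a mean Pearson r over the lines of 0.993 to 0.986 among 12000 genes. KIF18B and TPX2 act on spindle microtubules, INCENP belongs to the chromosomal passenger complex, NCAPH to condensin, and CCNF encodes cyclin F. The genes most like MYBL2 were RAB1B, CCNB2, PKM, ASF1B and HADH (mean r 0.989 to 0.984). FOXM1 and MYBL2 correlated with each other at a mean r of 0.933, rank 305 from FOXM1 and rank 211 from MYBL2. LIN37 had the most negative mean r with FOXM1 among the members (-0.911). RBL1 followed FOXM1 in T47D (0.984) and T47D-TR (0.957) and not in BT-549 (0.235). The libraries of a line share their DMSO scale, and MS177 libraries are the lowest in each line, so these values largely describe that contrast and carry no test.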

How the data were processed

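Polyadenylated RNA was sequenced in 38 samples of 3 cell lines in 19 groups. The 15 deposited tables hold log2 values, a variance-stabilizing transform computed by the authors within each table. The submitters' processing notes name RSEM, DESeq and hg38, with no versions. The transform was undone from each table's lowest value. Over all 21 pairs of tables that share a DMSO pair, the DMSO ratio per gene was then the same in 100% of genes (within 0.001 log2), against at most 72.17% on the deposited scale. In T47D and BT-549, 100% of values up to 1000 reads were whole (within 0.05 of a read). One repeated column was dropped, which left 37 libraries. No column was left unmapped (0).

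Compounds were compared with DMSO by limma (3.58.1, R 4.3.3, mean trend, robust) on the log2 values as deposited, 1 table at a time, over genes above the lowest value in at least 2 libraries. The 11 comparisons of compounds used log2(normalized count + 1) of all libraries of a line and time, put on 1 scale through the DMSO libraries their tables share, with a factor for each gene in T47D-TR and a common factor in the other lines. The 3 line comparisons used an interaction on the same scale. For both, a gene had to reach 10 normalized counts in 2 or more libraries. Tests were two-sided, with Benjamini-Hochberg adjustment over all tested genes and a threshold of 0.05. The limma fits were also run on log2(count + 1) of simulated counts with the same dispersion in every group. That does not check the deposited scale or groups of unequal spread.

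The members and gene lists were chosen with earlier results of these data known. Named were the members, EZH2, the other DREAM and MuvB genes, and the 5 genes most like FOXM1 and MYBL2. From each target list, the 2 largest falls and the 1 largest rise, or smallest fall where none rose, were named with MS177 in each line. List genes named for MS8815 and genes overlapping a member were added after their values were seen. Alternatives changed the filter, mean trend, scale, pseudocount, centring, libraries in the fit and replicate block, or left out a library. One, leaving MS8815-N replicate 2 out of the comparison with EPZ-6438, was chosen after seeing the data. A value that passed in neither fit counts as keeping its side whatever its sign.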

Additional observations from a re-analysis of the deposited data

Results flagged for a closer look

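The response to MS177 differed between T47D-TR and BT-549, by the test of the interaction itself (limma, Benjamini-Hochberg adjusted), for 6 of the 8 members, where 30.5% of 12887 tested genes passed. Each value is the log2 ratio to DMSO in T47D-TR minus that in BT-549, with 2 libraries per group. RBL1 differed by -2.44 (SE 0.257, adjusted p = 0.000543), MYBL2 by -2.25 (SE 0.135, adjusted p = 6.26e-05) and FOXM1 by -1.96 (SE 0.182, adjusted p = 0.000307). RBL2 differed by -1.52 (SE 0.243, adjusted p = 0.00332), LIN54 by -1.33 (SE 0.318, adjusted p = 0.0176) and LIN37 by 1.05 (SE 0.269, adjusted p = 0.0227). Leaving out 1 of the 8 libraries ended the LIN37 call in 4 of 8 cases and the LIN54 call in 3 of 8, and no call of the other 4. Groups of 2 libraries are too small for the test of a single outlying value.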

How the results depend on the processing

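Over 2550 values of single members under alternatives, 2376 kept their side of the threshold, 102 gained a call, 72 lost one and 0 called values changed direction. FOXM1 against DMSO: with MS177 in T47D it passed in the fit of all libraries of the line (-1.81), with the replicate block (-1.80) and when an MS177 library was left out, but not when a DMSO library was (leave-one-out values -1.94 to -1.66). In BT-549 it missed with the block (-0.67), and leave-one-out values ran from -0.78 to -0.55. With MS177-N1 in BT-549 it passed with the block (0.15). With MS8815 it missed in the fit of all libraries (-1.73), and leave-one-out values ran from -1.51 to -1.37. They ran from -0.72 to 0.0627 with EPZ-6438 and from -1.70 to -0.32 with MS8815-N. In T47D, MS177 missed with the compared libraries alone against C24 (-1.71), MS177-N2 (-1.79) and MS177-N1 (-1.80), with leave-one-out ranges of -1.85 to -1.56 for C24 and -1.94 to -1.65 for MS177-N2. The FOXM1 interactions ran from -1.28 to -0.99 (T47D against BT-549) and from -0.97 to -0.69 (T47D-TR against T47D).

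Members past the threshold against DMSO: with MS177 in BT-549, 1 with the block and 1 to 2 with a library left out. With MS177 in T47D, 5 in the fit of all libraries, 2 with the block and 0 to 8 with a library left out. With MS177-N1 in BT-549, 1 with the block. With MS177-N1 in T47D-TR, 0 in the fit of all libraries and 0 to 3 with a library left out. With MS8815, 2 with a filter 1 unit above the lowest value, 2 without the mean trend, 2 on the normalized count scale, 0 in the fit of all libraries and 0 to 7 with a library left out. With EPZ-6438 0 to 3 and with MS8815-N 0 to 5 with a library left out. Against the controls of MS177 in T47D, the compared libraries alone gave 0 for MS177-N1, 0 for MS177-N2 and 0 for C24, the block gave 1 for MS177-N1, and leaving out a library gave 7 to 7, 0 to 7 and 0 to 8. For MS8815 against MS8815-N it gave 0 to 4. The causes were not tested, except that a fit without 1 library has fewer samples. A fit left with 1 library of a group takes no spread from that group.

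Replicate numbers were not taken as pairs. Deviations of same-numbered libraries correlated between -0.80 and 0.81, and the replicate block gained 3 and lost 7 calls among 200 values. In BT-549, DMSO correlated with MS177-N1 (0.81), and MS177 with MS177-N2 (0.72) and C24 (0.68). DMSO and MS177-N1 each correlated negatively with those 3 groups (-0.80 to -0.60). In T47D-TR, DMSO and MS177-N2 stood likewise (0.53) against the other groups. These shared patterns did not follow replicate number, so the block does not take them up. They were not modelled. No block was possible against DMSO at 30 h or for MS177-N1 against DMSO in T47D. Depth limits cannot be given for T47D-TR, where it is unknown.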
